A study of Mus musculus with 4 samples.

Results

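Sweat gland epithelial cells of the regenerating mouse digit were picked out of 4 single-cell RNA libraries by the transcripts of 5 genes of simple and glandular epithelium. A kept barcode was a member when it held at least 1 unique molecular identifier (UMI, a count of 1 captured transcript) in at least 3 of Krt8, Krt18, Krt7, Aqp5 and Foxa1, and 0 UMIs of the Merkel cell genes Krt20 and Atoh1, the endothelial gene Pecam1 and the leukocyte gene Ptprc. Barcodes were kept with 200 to 5500 genes, at most 30000 UMIs and at most 10% mitochondrial UMIs. The rule found 373 members among 93602 kept cells.

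The study asked how blocking or removing lymphatics changes regrowth of the terminal phalanx (P3) after amputation of its tip. The SAR131675 library came from mice fed chow with 30 mg/kg of SAR131675, an inhibitor of the lymphatic growth factor receptor VEGFR3, and the control diet library from mice on chow without it, with a diet time of 8 days in the labels, although by the methods the diet began 5 days ahead of the surgery. Digits were taken 8 days after amputation by the text of the study, although 1 of its legends gives 5 days. The lymph node removal (LNR) library came from limbs that had lost the inguinal and popliteal nodes, and the sham library, labelled as untreated, from the opposite limbs. All 4 libraries used female C57BL/6 mice (C57BL/6J in the methods) of 6 to 8 weeks, and each pooled the digits of 10 mice into 1 suspension made with collagenases and dispase. The tips of digits 2 and 4 had been amputated, whereas the tissue taken was digits 2 to 4 cut through the second phalanx, so that unamputated digits, pads and footpad-side skin were part of each sample. The labels give each library a batch of its own, and with 1 library per condition a treatment and its library cannot be told apart. No test between conditions was therefore made, and all intervals are 95% intervals for counting error only.

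Mice carry eccrine sweat glands only on the paw pads and the footpad side of the digits. Each gland has a coiled secretory portion that releases a salt solution and a duct that takes salt back, and contractile myoepithelial cells wrap the coil. Secretion is driven by cholinergic nerves and calcium, with chloride loaded by the cotransporter Slc12a2, the gradient set by the sodium pump, and water crossing through the channel Aqp5. Foxa1 is a forkhead factor that mouse sweat secretion depends on, and Foxi1 is the forkhead factor of ion-transporting cells with proton pumps in kidney, inner ear and airway.

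Members numbered 155 of 29076 kept cells in SAR131675, 125 of 24030 in control diet, 55 of 19827 in LNR and 38 of 20669 in sham. A library held 448276501 or 585284877 UMIs in the diet pair and 168507188 or 175998346 in the LNR pair. The median member held 9147, 8633, 11149 and 11105 UMIs in SAR131675, control diet, LNR and sham, against 11316, 10712, 5725 and 5851 in all kept cells, so that members were shallower than the average cell in the diet pair and deeper in the LNR pair. Single members ranged from 544 to 29481 UMIs. Barcodes present in both libraries of a pair numbered 210 for the diet pair and 101 for the LNR pair among kept cells, and 0 among members.

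The levels of the rule genes chose the members and are given as a description. Levels are UMIs of a gene per 1000000 UMIs summed over the members of a library (CPM). Krt18, a simple epithelial keratin, was present in every member and stood at 1109, 1375, 1177 and 1523 CPM in SAR131675, control diet, LNR and sham. Its partner Krt8 stood at 629, 718, 864 and 1432 CPM. The water channel Aqp5 stood at 793, 622, 1094 and 968 CPM and was found in 92.8% to 97.4% of members. Krt7 and Foxa1 were minor entries, with Krt7 at 33.4, 46.8, 38.2 and 39.8 CPM and Foxa1 at 19.7, 26.3, 11.8 and 7.03 CPM. Foxa1 was detected in 10.3%, 11.2%, 10.9% and 7.89% of members and in 0% of collagen-expressing cells, which served as the measure of free RNA and had medians of 8570, 8406.5, 3851 and 3713.5 UMIs. Those cells held UMIs of Col1a1, Col1a2 and Dcn and were chosen without UMIs of Krt5, Krt14, Pecam1 and Ptprc. Leaving out barcodes with epithelial keratins can make free epithelial RNA look rarer, so shares in these cells may understate it. In all other kept cells no rule gene exceeded 12.4 CPM. Most members therefore rested on Krt8, Krt18 and Aqp5 alone, which was the set found in 119 of 155, 92 of 125, 39 of 55 and 28 of 38 members.

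**Figure D1:**
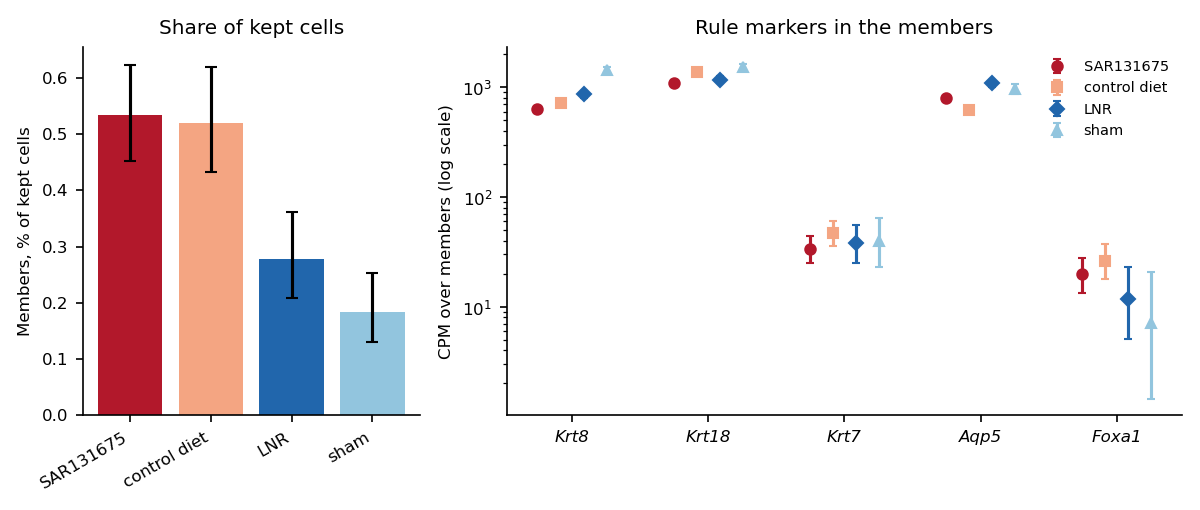
Left, members as a percent of kept cells in each library with exact binomial 95% intervals. Right, CPM of the 5 rule genes over the members on a log scale with exact Poisson 95% intervals. Krt8, Krt18 and Aqp5 lay between 622 and 1523 CPM in all 4 libraries, and Krt7 and Foxa1 between 7.03 and 46.8 CPM.

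Just outside the rule, cells with 2 of the 5 genes numbered 210, 149, 42 and 55 in SAR131675, control diet, LNR and sham. Fxyd2, a regulatory subunit of the sodium pump that the rule did not use, stood at 1105, 1503, 946 and 1686 CPM in them. It stood at 8055, 9636, 11102 and 8815 CPM in the members with exactly 3 genes, which numbered 133, 104, 41 and 30. Cells just under the limit thus carried the same transcript at a lower level in every library, and 42.9% to 67.1% of them held at least 1 UMI of it. Barcodes with 3 rule genes were left out for a Krt20 or Atoh1 UMI in 8, 7, 7 and 3 cases and for a Pecam1 or Ptprc UMI in 12, 12, 1 and 5 cases.

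The label was set beside markers outside the rule, in lists chosen with earlier results of these data known. Of 10 secretory genes of the gland, 6 had at least 20 UMIs in the members of every library and were compared. Of these, Slc12a2, Best2, Krt19 and Wfdc2 were at least 4-fold above all other kept cells in every library. The rest of the 6 were not, and over all genes compared under this minimum the share was 5.04%. The minimum was set on the members alone, so a gene low in members, such as Cldn10, could not enter this count. The summed level of all 10 was 8050, 7134, 4871 and 5087 CPM in members of SAR131675, control diet, LNR and sham. In other kept cells it was 148 to 249.6 CPM. Merkel cell genes summed to 0 to 2.46 CPM. The 6 duct markers, which include Krt19 and Scnn1b, summed to 657, 704, 729 and 1204 CPM in members of SAR131675, control diet, LNR and sham, against 26.9 to 44.2 CPM in other kept cells. Most of that sum was Krt19, at 494, 528, 586 and 1099 CPM, which is also in the secretory list. The 6 myoepithelial markers summed to 364, 24.6, 413 and 44.5 CPM, against 397 to 532 CPM. Single genes of both lists were at or near 0. The duct keratin Krt77 was at 0, 0, 1.47 and 2.34 CPM, and the oxytocin receptor Oxtr of myoepithelium did not exceed 0.82 CPM. Cldn10, a tight junction gene of the secretory list, was at 0, 9.03, 2.94 and 2.34 CPM in members and at 10.1 to 16.5 CPM in other kept cells, which goes against that list.

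Members made up 0.533% (0.453 to 0.624) of kept cells in SAR131675 and 0.520% (0.433 to 0.619) in control diet. The log2 ratio of these shares was 0.04 (−0.31 to 0.39). This interval covers counting error only and includes 0, and 1 library per condition gives no test of the shares. In the second pair, members made up 0.277% (0.209 to 0.361) of LNR cells and 0.184% (0.130 to 0.252) of sham cells. The log2 ratio was 0.59 (−0.03 to 1.23), an interval for counting error that includes 0, with the same limit. The interval lay above 0 in 3 of the 10 other settings tried, at 0.66 (0.06 to 1.26) with no limit on Krt20 and Atoh1, 0.63 (0.0046 to 1.27) without members over 1% collagen UMIs, and 0.70 (0.059 to 1.37) as a share of cells with Epcam, Krt5 or Krt14. With kept cells of at least 2000 UMIs thinned to 2000 UMIs each, the LNR pair was at 0.18 (−0.73 to 1.11). Members were then 23 of 17611 cells in LNR and 21 of 18260 in sham. A share of dissociated cells depends on how many cells of every other type were released. Fewer gland cells therefore cannot be told apart from more of the others.

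The members were compared with all other kept cells gene by gene. Of 2818 genes with at least 20 UMIs in the members of every library, 142 were at least 4-fold higher in members in all 4 libraries (5.04%). That minimum was set on the members alone, so genes low in members were not compared. This comparison describes cells that were chosen by transcripts and has no test. The 2 genes with the largest ratios were both partners of the sodium pump, and the ratio that follows is the smallest over the 4 libraries on a log2 scale with 10 CPM added. Fxyd2 stood at 7589.7, 8598, 12395.5 and 10422 CPM in SAR131675, control diet, LNR and sham, against 34.6 to 40.5 CPM in other kept cells, a log2 ratio of at least 7.33. Atp1b1, the beta subunit of the same pump, stood at 3937, 4003, 4419 and 4264 CPM, again a log2 ratio of at least 7.33. Both were found in most members, Fxyd2 in 92.8% to 96.8% and Atp1b1 in 89.5% to 93.6%, against 3.49% to 5.24% and 2.15% to 4.06% of collagen-expressing cells.

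A pair of secreted proteins and a calcium pump came next. Wfdc2, a secreted protein with protease inhibitor domains, stood at 2149, 1691, 1366 and 1303 CPM with a log2 ratio of at least 6.75. Pglyrp1, a peptidoglycan recognition protein of innate defense, stood at 1046, 969.8, 1563 and 1478 CPM with a log2 ratio of at least 6.17. The calcium pump of the endoplasmic reticulum Atp2a3 stood at 986, 1021, 1081 and 1092 CPM with a log2 ratio of at least 5.99. The remaining 15 leading genes were Krt19, Tesc, 4930469K13Rik, Atp6v1b1, Tfcp2l1, Tmem213, Ceacam1, Cldn7, Aldoa, BC006965, Slc12a2, Cystm1, Mfsd4a, Cpm and Car6, with smallest log2 ratios from 5.46 down to 4.48. Among them Atp6v1b1 encodes a proton pump subunit of ionocytes, Tfcp2l1 a transcription factor of duct and collecting tubule epithelia, and Car6 a secreted carbonic anhydrase.

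**Figure D2:**
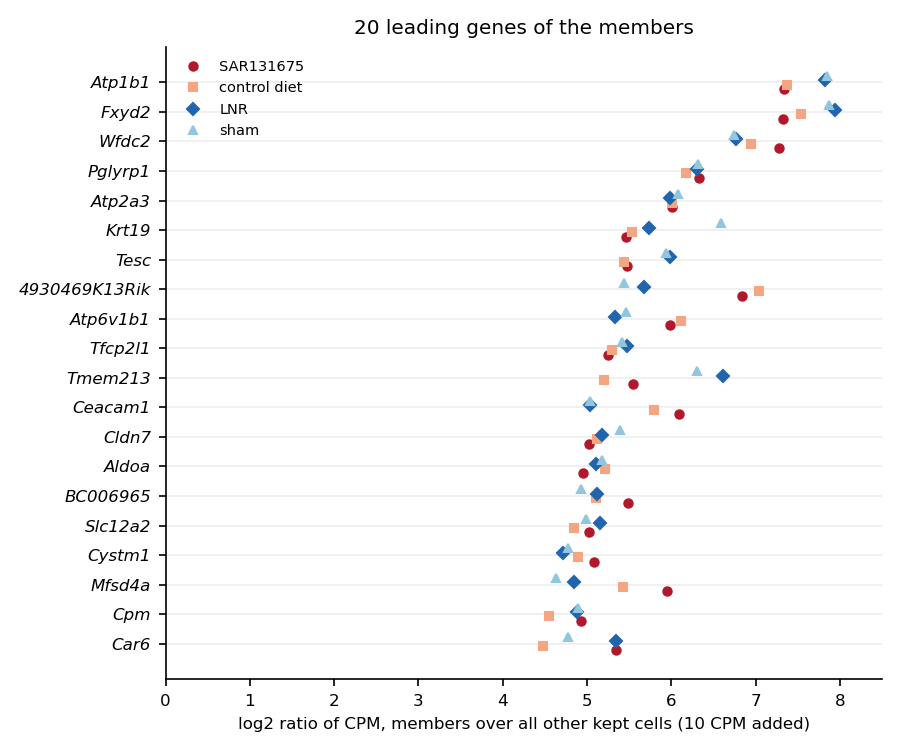
Log2 ratio of CPM in members over all other kept cells, with 10 CPM added, for the 20 genes with the largest smallest ratio, 1 point per library. Fxyd2 and Atp1b1 lie at 7.33 or higher in all 4 libraries, and every gene shown lies at 4.48 or higher.

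Gene lists, which were chosen with earlier results of these data known and so give no independent support, were set beside the 5.04% of all compared genes. Of the 26 fluid secretion and ion transport genes, 15 could be compared and 10 were at least 4-fold higher in every library, including Slc12a2, Best2, Kcnn4, Kcnq1, Slc4a4, Car12 and Scnn1b. Slc12a2 stood at 3996, 3652, 2464 and 2308 CPM in SAR131675, control diet, LNR and sham, against 59.5 to 117 CPM in other kept cells. Kcnn4, a calcium-activated potassium channel, stood at 130.4, 151, 263 and 250.7 CPM. Car12, a membrane carbonic anhydrase, was nearly level at 1221, 1079.8, 1087 and 1080.2 CPM. Best2, a bicarbonate-conducting anion channel of sweat glands, stood at 141.5, 226, 181 and 127 CPM and was found in 17.4%, 16%, 41.8% and 23.7% of members, against at most 0.277% of collagen-expressing cells. The chloride channel Cftr and the channel subunit Bsnd had 0 UMIs in the members of every library. A count of 0 allows up to 1.97, 2.46, 4.41 and 7.03 CPM in SAR131675, control diet, LNR and sham.

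Receptors and calcium signaling were a smaller set. Of 19 genes, 9 could be compared, and 2 were at least 4-fold higher in every library. These were Itpr2, the calcium release channel on which sweat secretion depends, at 1483, 1109, 610 and 694 CPM, and Vipr1, a receptor for vasoactive intestinal peptide, at 137, 143, 73.5 and 105 CPM. The muscarinic receptor Chrm3, the main cholinergic receptor of sweating, stood at 879 and 694 CPM in SAR131675 and control diet and at 29.4 and 30.5 CPM in LNR and sham. The libraries of each pair were close to each other and the pairs far apart, a split taken up again with gene length at the end. The adrenergic receptors Adra1a and Adra1b had 0 UMIs in the members of all 4 libraries.

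Of 25 gland transcription factors 15 could be compared and 6 were at least 4-fold higher in every library, namely Sox10, Elf3, Ehf, Tbx3, En1 and Tfcp2l1. En1, the homeobox gene that marks footpad-side skin and is needed for eccrine glands, stood at 219, 197, 178 and 150.0 CPM in members of SAR131675, control diet, LNR and sham, against 20.4 to 32.7 CPM in other kept cells. Foxi1 was too low to be compared by the fixed minimum. It stood at 73.4, 76.4, 42.6 and 35.1 CPM, against at most 0.169 CPM in other kept cells, and was found in 34.2%, 34.4%, 25.5% and 31.6% of members against at most 0.0562% of collagen-expressing cells. Slc26a4, the anion exchanger pendrin that accompanies Foxi1 in ionocytes, stood at 47.2, 45.2, 42.6 and 21.1 CPM. Ascl3, another ionocyte factor, had 0 UMIs in all members.

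Epithelial structure genes added Krt19, Krt23, Epcam, Cldn3, Cldn7 and Cldn8, which were 6 of 11 compared in a list of 25. Of the hypoxia and glycolysis genes, 7 of 10 compared were at least 4-fold higher in every library (Vegfa, Slc2a1, Ldha, Pgk1, Aldoa, Eno1 and Bnip3). Aldoa, the glycolytic aldolase, stood at 6820.4, 8389, 9838 and 10560.3 CPM in SAR131675, control diet, LNR and sham, against 211 to 281 CPM in other kept cells. Vegfa, the main growth factor for blood vessels and a ligand of VEGFR2, stood at 285, 255, 166 and 260.1 CPM against 23.0 to 28.9 CPM. The lymphatic ligand Vegfc stood at only 17.7, 22.2, 4.41 and 4.69 CPM, and Flt4, which encodes the VEGFR3 that SAR131675 inhibits, had 0 UMIs in the members of every library, as had Kdr.

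Other lists held few or no genes above 4-fold. Defense and secreted genes gave 2 of 3 compared, Wfdc2 and Wfdc18, while 13 of the 30 genes of that list, including the salivary and lacrimal type products Ltf, Pip and Mucl1, were at 0 in all members. None of the compared genes was at least 4-fold higher in every library in the lists for cell division (2 compared), interferon response (4), myoepithelium (5), oxidative phosphorylation and secretory stress (10), wound keratins and AP-1 (10), eccrine development (2), neurotrophic factors (1) and osteoclast regulators (1). Tnfsf11, which encodes the osteoclast factor RANKL, had 0 UMIs in all members.

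The members were not uniform. Within a library, Slc12a2 ran from 0 CPM in the 10th percentile member to 12430 CPM in the 90th percentile member of control diet, with a median of 1468 CPM. Wfdc2 ran from 0 to 3820 CPM there, with a median of 188 CPM and 41 of 125 members at 0. Clustering of the 373 members on 2000 variable genes without the 5 rule genes gave 6 clusters, which are described by their genes and not named as cell types, since a cluster drawn from these cells is no independent test of them.

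The largest cluster, with 143 members and a median of 3040 UMIs, had the hemoglobin genes Hba-a1, Hba-a2, Hbb-bs and Hbb-bt and Bpifb3 as its leading genes by summed counts. The hemoglobin counts were mostly those of single members, with 298 of 331 Hbb-bs UMIs and 208 of 231 Hba-a1 UMIs in 1 member, and Bpifb3 was found in 39 of the 143. Its Fxyd2 level was 13832 CPM and its Aldoa level 17143 CPM. The cluster of 75 members was led by Adcy8, Plcb1, Chst9, Elmo1 and Chrm3. In it Foxi1 was found in 62.7% of members and the receptor Kit in 94.7%, Atp6v1b1 stood at 1484 CPM, and Foxa1 was found in 2.67%. The cluster of 27 members was led by Ppargc1a, the coactivator of mitochondrial genes, and by Kcnma1, Erbb4, Ank2 and Map1b. In these members Best2 was found in 100% and Foxa1 in 85.2%, Foxi1 in 3.70%, and Slc12a2 and Wfdc2 stood at 16232 and 8985 CPM, while Aldoa was at 1277 CPM. The clusters led by Adcy8 and by Ppargc1a held 44 and 31 and 14 and 13 members of SAR131675 and control diet, and 0 of LNR and sham.

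The leading genes by summed counts of the other clusters included genes of further cell types, in part from few members. The cluster of 86 members was led by Prg4, Cytl1, Sparc, Dcn and Col3a1, which are mesenchymal genes. All 983 Cytl1 UMIs lay in 2 members, 607 in 1 of control diet and 376 in 1 of sham. Of the 4218 Prg4 UMIs, 2636 lay in 1 sham member and 839 in 1 LNR member, while Dcn was found in 42 of the 86 members. The cluster held 33 of the 55 LNR members and 20 of the 38 sham members against 17 and 16 of SAR131675 and control diet. It kept Fxyd2 at 12962 CPM, and 51.2% of its members held Best2. The cluster of 31 members was led by Sprr1a, Hrnr, Pinlyp, Klk7 and Krt2, genes of cornifying epidermis. Sprr1a rested on 1 member with 473 of 478 UMIs, whereas Krt2 was found in 26 of the 31. Its Krt10 level was 17771 CPM and its Fxyd2 level 1627 CPM, below the members as a whole. The 11 members led by Gprc5a, Dclk1, Krt79, Col25a1 and Cldn4 all held Krt7, with Krt14 at 4219 CPM and Fxyd2 at 760 CPM, and came from SAR131675 (6) and control diet (5). Fxyd2 was thus lowest in the clusters led by Sprr1a and by Gprc5a. Doublets were left in. Scrublet, a doublet caller, marked 4.67%, 0.907%, 7.41% and 6.97% of kept cells in SAR131675, control diet, LNR and sham. The rates expected from the cell numbers were 23.3%, 19.2%, 15.9% and 16.5%. It marked 0 control diet members, so doublets can remain among the members after removal. Removing the barcodes that it marked left 153, 125, 53 and 37 members in SAR131675, control diet, LNR and sham. The removal changed calls of genes past 2-fold in the diet pair and in the LNR pair. In the diet pair 71 of 81 higher and 76 of 78 lower genes kept their call. In the LNR pair 30 of 44 higher and 33 of 44 lower genes did.

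Foxa1 and Foxi1 were counted in the same members, with Foxa1 being a rule gene. Foxa1 was detected in 16, 14, 6 and 3 members of SAR131675, control diet, LNR and sham, Foxi1 in 53, 43, 14 and 12, and both in 0, 1, 1 and 1. Most members held neither, 86 of 155, 69 of 125, 36 of 55 and 24 of 38. The overlap expected if these genes were independent was not worked out. With Foxa1 in 6 LNR and 3 sham members, few members with both would be expected there in any case, so no exclusion is read from these counts. Inside each library, members with at least 3 Best2 UMIs were set against the other members. This limit was chosen after values were seen, and the comparison is a description. There were 13, 16, 17 and 7 such members, with a median of 16610.0, 14367, 16749 and 16406 UMIs against 7600.5, 7486, 7645 and 9407 in the others, so they were deeper in every library.

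Members with Best2 carried more Foxa1 in all 4 libraries, and Foxa1 helped to choose the members, so its values here are a description. Foxa1 was found in 76.9%, 81.3%, 29.4% and 42.9% of them in SAR131675, control diet, LNR and sham, and in 4.23%, 0.917%, 2.63% and 0% of the others. The log2 ratio of CPM with 10 CPM added was 2.65, 3.76, 1.46 and 1.81. In LNR it rested on 7 Foxa1 UMIs against 1 and in sham on 3 against 0, with overlapping CPM intervals in both. Ppargc1a was also higher in every library, at log2 ratios of 3.66, 4.58, 2.78 and 1.99. Wfdc2 followed with 3.04, 3.97, 1.91 and 2.30 and Slc12a2 with 2.56, 3.13, 1.95 and 2.34. Kitl, the ligand of Kit, followed with 2.54, 3.70, 2.69 and 2.36. These 5 genes were higher with Best2 in all 4 libraries, whereas Kcnma1 was at 3.68, 3.92 and 2.87 in SAR131675, control diet and LNR and at 0.09 in sham. The sham value of Kcnma1 rested on 3 UMIs in 3 members with Best2 against 7 UMIs in 1 of the others, and the LNR value on 18 UMIs against 0.

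Another set of genes was lower in the members with Best2 in the diet pair. Foxi1 was lower in members with Best2 in SAR131675 and control diet, at log2 ratios of −2.70 and −2.10, and near level in LNR and sham, at 0.14 and 0.28. Its companions Kit (−2.15, −2.02, −0.01 and 0.02) and Atp6v1b1 (−1.97, −1.97, 0.05 and 0.07) behaved alike. Krt19 was at −2.96, −1.64, −0.03 and 0.36. Aldoa was at −2.12 and −1.91 in the diet pair and −0.58 and 0.20 in LNR and sham, and Ldha at −2.00, −1.79, −0.62 and 0.14. In LNR both were thus lower with Best2 as well, Aldoa at 7644 (7326 to 7972) against 11419 (11088 to 11757) CPM. No difference between the libraries was tested. Fxyd2 was at −0.18, 0.20, 0.24 and 0.83, and in sham it stood at 15214 (14523 to 15929) CPM with Best2 against 8552 (8228 to 8885) CPM in the others. The part of depth in these ratios was not tested.

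**Figure D3:**
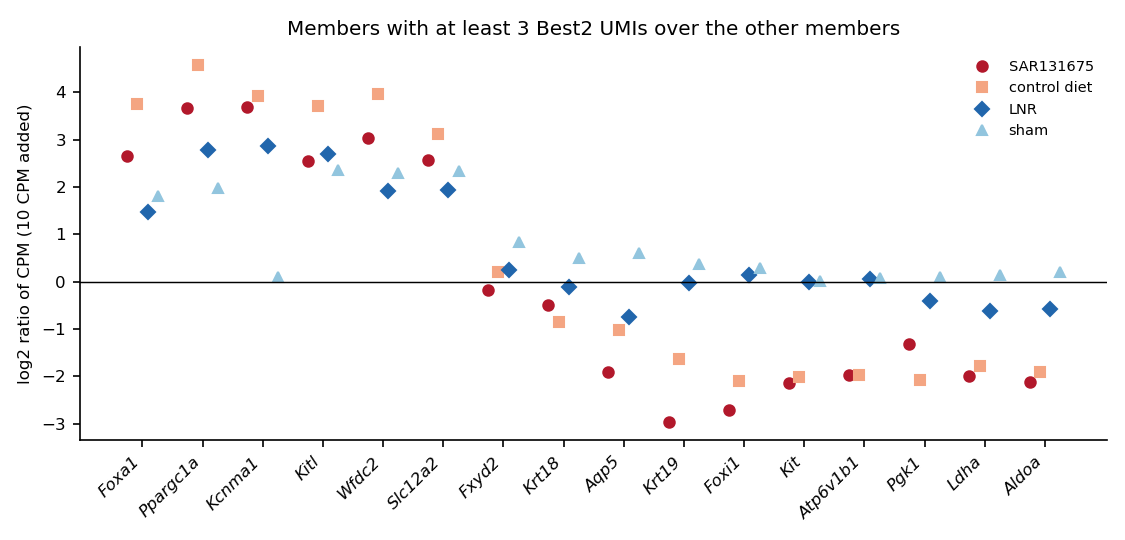
Log2 ratio of CPM, with 10 CPM added, in members with at least 3 Best2 UMIs over the other members of the same library, 1 point per library. Foxa1, Ppargc1a, Kitl, Wfdc2 and Slc12a2 are above 0 in all 4 libraries, and Foxi1, Kit, Atp6v1b1 and Krt19 are at −1.64 or lower in SAR131675 and control diet and between −0.03 and 0.36 in LNR and sham.

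Promoter letters are shown for the forkhead motif because Foxa1, a rule gene, and Foxi1 are forkhead genes. In the RefSeq promoters of build GRCm38.p6, which run from 250 bases before to 50 bases after a gene's start, the forkhead core TGTTTAC on either strand occurred in 1199 of 32851 windows (3.65%). Of the 5 rule genes and 20 leading genes, 21 had a promoter in the table, and 2 of these held the motif, Atp6v1b1 and Foxa1 itself. Both stretches are shown with the motif in capitals and 40 bases on each side, from chr6:83742879-83742965 on the plus strand and chr12:57546206-57546292 on the minus strand. In Foxa1 the motif is on the opposite strand and reads GTAAACA.
Atp6v1b1: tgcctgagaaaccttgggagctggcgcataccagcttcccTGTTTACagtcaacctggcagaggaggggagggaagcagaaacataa
Foxa1: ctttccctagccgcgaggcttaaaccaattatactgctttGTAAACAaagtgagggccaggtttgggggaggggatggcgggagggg
A match of 7 bases is a description of the letters, and the files hold no measure of binding.

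The next comparison asked whether the members of the SAR131675 and control diet libraries differed. Of 7074 genes with at least 50 UMIs over the members of the pair, 81 were more than 2-fold higher in SAR131675 (1.15%) and 78 more than 2-fold lower (1.1%), and the median log2 ratio was 0.01. None of the 22 fluid secretion and ion transport genes passed 2-fold in either direction, with a median of −0.02, a count near the share of all genes. The same held for 21 keratin and junction genes (median −0.08), 20 transcription factors (0.13), 11 hypoxia and glycolysis genes (−0.01) and 12 genes of oxidative phosphorylation and secretory stress (0.10). Fxyd2 was at a log2 ratio of −0.18 (−0.22 to −0.14), Slc12a2 at 0.13 (0.07 to 0.19), Itpr2 at 0.42 (0.32 to 0.52) and Best2 at −0.67 (−0.94 to −0.41). Several of these intervals exclude 0, and they cover counting error of the summed UMIs only. The spread from member to member, from mouse to mouse or from library to library is not in them.

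Several listed genes past 2-fold rested on single members. Sprr1a, a cornified envelope gene, had 479 UMIs in SAR131675 and 7 in control diet, and 98.7% of the 479 lay in 1 member. Krt17, a keratin of wounded and appendage epithelium, had 140 and 919 UMIs, and 87.8% of the 919 lay in 1 member. The myoepithelial list gave 3 genes higher in SAR131675 (Acta2, Myh11 and Tagln) and 3 lower (Krt5, Krt17 and Sparc) of 11. Acta2, smooth muscle actin, had 234 UMIs in 8 members of SAR131675 and 8 UMIs in 3 members of control diet, and Oxtr was found in 0 of the members with at least 2 Acta2 UMIs. Of the 4 such members in SAR131675, 3 held Notch3 and 2 held Rgs5, which are genes of vessel wall cells, 3 held Col3a1 and 3 held Krt14. All 4 also held Fxyd2, Atp1b1 and Tagln, 3 held Myh11 and 2 held Cnn1, and the part of other cell types was not tested. Lyz2, a myeloid lysozyme, had 8 and 111 UMIs, and Calml3 and Clu were also more than 2-fold lower. With barcodes over the upper limits let in, Acta2 was at 1.40, Myh11 at 0.63, Tagln at 1.63, Clu at −0.24, Krt5 at 0.14 and Krt17 at 1.35, so that the calls of Myh11, Clu and Krt5 ended and Krt17 turned. Krt5, at −1.01, was also within 2-fold or turned in 4 other settings, from −0.99 to 1.21, and Clu was at −0.32 by the mean CPM of single members. Without the top members Krt17 was at −0.55 and Sparc turned to 1.85. With the barcodes called doublets by Scrublet removed, Myh11 had too few UMIs over the pair to be compared.

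Ptch1, the receptor of hedgehog signals, had 44 UMIs in 29 SAR131675 members and 15 in 12 control diet members, with a log2 ratio of 1.20 (0.35 to 2.18), and 0.82 with barcodes over the upper limits let in and 0.76 by the mean CPM of single members. Of 4 cell division genes compared, 2 were more than 2-fold lower in SAR131675. Mki67, a marker of cycling cells, had 9 UMIs in 4 of 155 SAR131675 members and 68 UMIs in 20 of 125 control diet members, a log2 ratio of −3.18 (−4.43 to −2.23). Top2a had 8 UMIs in 6 members and 62 UMIs in 15 members, a log2 ratio of −3.20 (−4.55 to −2.21). In control diet, 1 member held 36 of the 68 Mki67 UMIs and 1 member held 43 of the 62 Top2a UMIs. Without the top member of each library both genes fell under 50 UMIs over the pair, with 3 and 32 UMIs of Mki67 and 6 and 19 of Top2a in SAR131675 and control diet. With barcodes over the upper limits on genes and UMIs let in, the log2 ratios were −0.55 and −0.30, so neither gene was past 2-fold under that setting. Members with either gene were 10 of 155 (6.45%, 3.14 to 11.5) in SAR131675 and 24 of 125 (19.2%, 12.7 to 27.2) in control diet. Of the 24, 9 fell in the cluster led by Sprr1a and 8 in the cluster led by Prg4. Collagen-expressing cells held Mki67 in 3.76% and 2.21% of cells, beside 2.58% and 16% of members in SAR131675 and control diet. Collagen-expressing cells can cycle themselves, so their share is no measure of free RNA for this gene. In the second pair members with either gene were 4 of 55 in LNR and 5 of 38 in sham, and each gene had fewer than 50 UMIs over the pair.

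Of the 5 largest rises in SAR131675 members, 4 had 0 UMIs in control diet. Serping1 had 90 UMIs in 8 members, Rgs5 66 in 3 members, Klk10 62 in 2 members and Clec3b 55 in 3 members. The top member held 75.6%, 50%, 98.4% and 54.5% of them, and without it each gene had fewer than 50 UMIs over the pair. Rgs5 also had fewer than 50 with the barcodes called doublets removed. Col3a1, a fibroblast collagen, had 282 UMIs against 3, and 80.5% of them lay in 1 member. The 5 largest falls were Msmp (0 against 316 UMIs), Ibsp (0 against 136), Col2a1 (0 against 69), Cytl1 (6 against 609) and Wif1 (1 against 108), and in each of them 1 control diet member held at least 99.7% of the UMIs. Col2a1 and Ibsp are matrix genes of cartilage and bone, and single members decided these falls. The summed level of the 6 mesenchymal markers in members was 784 CPM in SAR131675, 226 in control diet, 1059 in LNR and 1617 in sham, against 4123 to 7283 CPM in other kept cells. Its part in the differences was not tested.

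**Figure D4:**
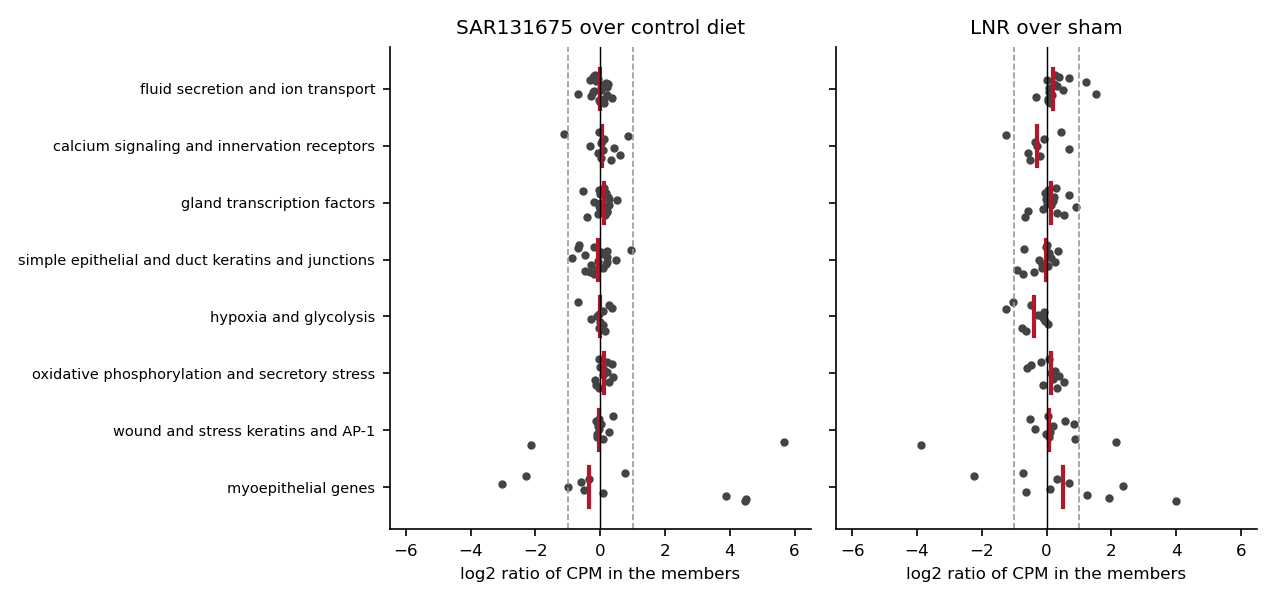
Log2 ratio of CPM in members for the genes of 8 lists with at least 50 UMIs over a pair, SAR131675 over control diet on the left and LNR over sham on the right. Each point is a gene, red bars are list medians, and dashed lines mark 2-fold. Most points beyond the lines are myoepithelial genes, with none of the 22 fluid secretion genes beyond them in the diet pair.

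In the LNR pair, 3012 genes had at least 50 UMIs over the members, of which 44 were more than 2-fold higher in LNR (1.46%) and 44 more than 2-fold lower (1.46%), with a median log2 ratio of 0.04. None of 15 transcription factors, 15 keratin and junction genes or 11 genes of oxidative phosphorylation and secretory stress passed 2-fold. Among 16 fluid secretion and ion transport genes, 2 were higher and 0 lower, with a list median of 0.21. Among 10 myoepithelial genes 4 were higher (Acta2, Tagln, Tpm2 and Krt17) and 1 lower (Sparc), with a median of 0.51, and among 5 defense and secreted genes 2 were higher (Lyz2 and Cxcl2). With barcodes over the upper limits let in, Acta2 was at 0.91, Tagln at 0.61, Tpm2 at 0.65 and Krt17 at −0.76, none of them more than 2-fold higher. Tpm2 was at 0.70 by the mean CPM of single members. Aqp3, a glycerol and water channel, had 98 UMIs in 16 LNR members and 21 in 5 sham members, a log2 ratio of 1.52 (0.86 to 2.30). Car2, a cytosolic carbonic anhydrase, had 53 UMIs in 25 members and 14 in 10 members, a log2 ratio of 1.21 (0.38 to 2.21). Aqp3 is abundant in epidermis and stood at 403 and 419 CPM in the other kept cells of LNR and sham, above its 144 and 49.2 CPM in members, whereas Car2 stood at 4.98 and 4.54 CPM there. With barcodes over the upper limits let in, Aqp3 was at 0.33 and Car2 at 0.69, both within 2-fold.

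Of 10 hypoxia and glycolysis genes, 2 were more than 2-fold lower in LNR members and 0 more than 2-fold higher, with a list median of −0.37. Ndrg1, a stress-response gene induced by low oxygen, stood at 41.1 and 98.4 CPM in LNR and sham, and its log2 ratio was −1.25 (−2.00 to −0.53). Hk2, hexokinase 2, stood at 42.6 and 86.7 CPM, with the log2 ratio at −1.02 (−1.78 to −0.28). Slc2a1, the glucose transporter, was at −0.77 (−1.12 to −0.42), Vegfa at −0.65 (−1.04 to −0.26) and Eno1 at −0.27 (−0.43 to −0.12). With barcodes over the upper limits let in, Ndrg1 was at −0.83 and Hk2 at −0.75, both within 2-fold, and Ndrg1 was at −0.98 without the top members. Hk2 was within 2-fold in 4 other settings, from −0.98 to −0.996. In the diet pair the list median was −0.01. The difference between the pairs was not tested.

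None of the keratin and junction genes passed 2-fold, with a list median of −0.03. Krt19 stood at 586 and 1099 CPM in LNR and sham, and its log2 ratio was −0.91 (−1.10 to −0.71). Krt8 was at −0.73 (−0.89 to −0.56), and Krt8 was used to choose the members. The largest rises were in genes of leukocytes, smooth muscle and blood. Il1b had 64 UMIs in LNR against 2 in sham, Acta2 164 against 6, Cxcl2 161 against 6, Hbb-bs 86 against 3 and Spp1 96 against 10. Spp1 was at 0.84 by the mean CPM of single members. These genes were held by 4 to 8 LNR members, with 42.2% of the Il1b UMIs and 93.0% of the Hbb-bs UMIs in 1 member. Without the top member of each library, Cxcl2 had 86 UMIs against 3. The others then had fewer than 50 UMIs over the pair, with Il1b at 37 against 0, Acta2 33 against 4, Hbb-bs 6 against 2 and Spp1 8 against 1. Il1b also had fewer than 50 with the barcodes called doublets removed. The largest falls were Cytl1 (0 against 376 UMIs, all in 1 sham member), Chad (2 against 94), Htra4 (9 against 181), Defb6 (7 against 74) and Krt6a (10 against 96), with 2 to 6 sham members holding the last 4. The top sham member held 96.8% of the Chad UMIs, 67.4% of Htra4, 41.9% of Defb6 and 85.4% of Krt6a. The 7 immune markers summed to 219 CPM in LNR and 44.5 CPM in sham members, against 1283 and 1142 CPM in other kept cells, and their part in the rises of Il1b and Cxcl2 was not tested.

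Both pairs could be compared for 2990 genes, and these pairs share no library. Past 2-fold in the same direction were 6 higher genes (Tmem176a, Mgp, Hbb-bs, Tagln, Lum and Acta2) and 12 lower genes (Fn1, Snorc, Prg4, Stmn1, Cytl1, Ibsp, Sparc, Wfdc17, Chad, Krt24, Calml3 and Krt6a). Taken alone, the diet pair had 81 genes past 2-fold higher and 78 lower of 7074, and the LNR pair 44 and 44 of 3012. Krt17 and Lyz2 were past 2-fold lower in the diet pair and past 2-fold higher in the LNR pair. Genes past 2-fold in opposite directions were not counted, and agreement between the pairs was not tested. Several of the genes with the same direction in both pairs rested on single members. Sparc, a matrix protein, had 886 UMIs in control diet of which 98.2% lay in 1 member, and 440 in sham of which 79.1% lay in 1 member. Without the top member of each library, its log2 ratio moved from −2.31 to 1.85 in the diet pair and from −2.24 to −0.17 in the LNR pair.

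A few genes were spread more widely. Snorc, a cartilage-associated proteoglycan, had 146, 288, 121 and 227 UMIs in 41, 40, 23 and 19 members of SAR131675, control diet, LNR and sham. Its log2 ratios were −1.30 (−1.60 to −1.01) and −1.58 (−1.91 to −1.26), and −1.29 and −1.14 without the top member of each library. Calml3, a calmodulin-like protein of epithelium, had 167, 289, 37 and 55 UMIs in 34, 21, 11 and 10 members, with log2 ratios of −1.11 (−1.40 to −0.84) and −1.24 (−1.89 to −0.62), and −1.03 and −1.15 without the top members. Tmem176a, a membrane protein, had 157, 61, 121 and 31 UMIs in 54, 33, 29 and 11 members, with log2 ratios of 1.03 (0.60 to 1.49) and 1.27 (0.71 to 1.91), and 0.74 and 1.24 without the top members. Without the top members, Wfdc17 was at −1.08 and −1.49 and Krt24 at −2.01 and −1.04, while Acta2, Lum, Chad and Krt6a had fewer than 50 UMIs left in at least 1 pair, with the direction unchanged. Acta2 then had 135 against 3 UMIs in the diet pair and 33 against 4 in the LNR pair, Lum 13 against 0 and 47 against 7, Chad 1 against 9 and 1 against 3, and Krt6a 46 against 98 and 4 against 14. Other genes of the 2 sets also had fewer than 50 UMIs left and turned. In the diet pair Fn1 was at 0.57 with 19 against 10 UMIs and Cytl1 at 0.81 with 5 against 2. In the LNR pair Mgp was at −1.45 with 4 against 7 UMIs. Other settings also ended or turned calls of genes past 2-fold in both pairs. With barcodes over the upper limits let in, Snorc was at −0.27 and −0.81, Calml3 at −0.24 in the diet pair, Krt24 at −0.64 and −0.54, and Tmem176a at 0.50 and 0.37. In the diet pair the same setting put Fn1 at 1.53, Prg4 at 4.27, Stmn1 at 0.13, Hbb-bs at 0.80 and Krt6a at 1.11. With the barcodes called doublets by Scrublet removed, the LNR pair had Prg4 at −0.25 instead of −2.56, Fn1 at −0.23 instead of −1.48, Lum at 0.98 and Calml3 at −0.95. Without the clusters led by Prg4 or Sprr1a, Calml3 was at 0.073, Wfdc17 at 1.07 and Prg4 at 0.79 in the diet pair, and Snorc at −0.90 and −0.57. Without members over 1% of UMIs from other cell type markers, Krt24 was at 1.20, Calml3 at −0.22, Wfdc17 at −0.083, Hbb-bs at −0.14, Prg4 at 0.54 and Sparc at 1.56 in the diet pair, and Snorc at −0.82 and Sparc at 0.48 in the LNR pair. With at least 4 markers, Snorc was at 0.48 in the diet pair and Sparc at 0.92 in the LNR pair. By the mean CPM of single members, Calml3 was at −0.24, Prg4 at −0.35, Snorc at −0.92 and Tmem176a at 0.58 in the diet pair and Krt24 at −0.97 in the LNR pair. Without the top members, Hbb-bs was at −0.091, Prg4 at −0.19 and Stmn1 at −0.79 in the diet pair and Sparc at −0.17 in the LNR pair.

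Levels were not compared between the diet pair and the LNR pair as a result, because the pairs differed by gene length in the members. The control diet over sham ratio could be taken for 5183 genes, of which 5130 (99.0%) had a length in the RefSeq annotation of build GRCm38.p6. The median log2 ratio was −0.16 over 1207 genes under 10 kb, 0.34 over 2172 genes of 10 to 50 kb, 0.94 over 1431 genes of 50 to 200 kb and 1.76 over 320 genes over 200 kb. The share of genes more than 2-fold higher in control diet rose over the same groups from 5.39% to 16.0%, 46.3% and 84.7%. Chrm3, which spans 486 kb, was at 4.46, and Kcnma1, which spans 713 kb, at 3.56. The short genes Krt18 and Fxyd2, of 3.81 and 10.6 kb, were at −0.15 and −0.28. The clusters led by Adcy8 and by Ppargc1a, which held no LNR or sham member, were led by genes of this kind, with Adcy8 at 223 kb and 2.61, Plcb1 at 689 kb and 2.65 and Ppargc1a at 662 kb and 2.84. The file headers name Cell Ranger 8.0.1 for the diet pair and 6.1.2 for the LNR pair, and whether intronic reads were counted is not given in the sources used here.

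**Figure D5:**
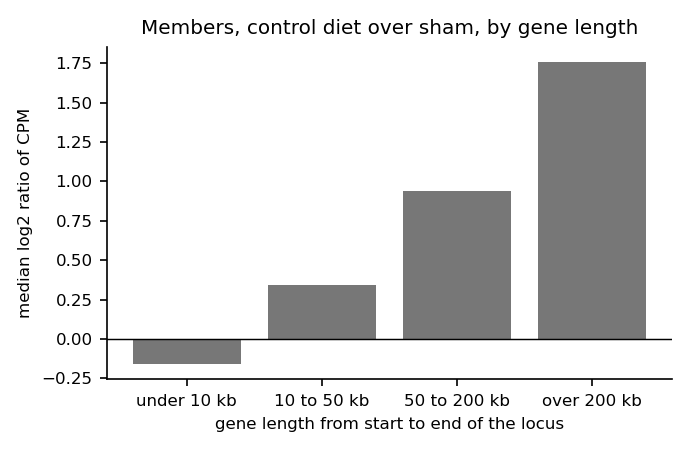
Median log2 ratio of CPM in members, control diet over sham, for genes grouped by the length of their locus in kb. The bars rise from −0.16 for genes under 10 kb to 1.76 for genes over 200 kb.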

How the data were processed

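Droplet 3′ RNA libraries (10x Genomics) were read from the gene-by-barcode matrices that the authors deposited as raw UMI counts for 33696 genes. The labels name Cell Ranger 6.1.2 and build GRCm39, whereas the file headers name version 6.1.2 for the LNR pair and 8.0.1 for the diet pair. The annotation release and the intron setting are not given in the sources used here, and 0 per-sample columns were left unused. The upper limits on genes, UMIs and mitochondrial UMIs follow those stated for the LNR data. The integration by SCTransform and Harmony in the study was not repeated.

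The members and gene lists were chosen with earlier results of these data known. Member counts were summed per library and given as CPM with exact Poisson intervals. Shares had Clopper-Pearson intervals, and ratios within a pair had exact conditional intervals. For the ratio of a gene 0.5 was added to each sum, while its interval was taken from the sums without it. Nothing was added for ratios of shares. All of these intervals are 95% intervals for counting error only. Genes with at least 50 UMIs over a pair were compared, and a ratio past 2-fold was counted. Named genes were the rule genes, the 20 leading genes, the 5 largest rises and falls of each pair, genes past 2-fold in both pairs, and list genes. The Best2 split and the genes discussed with it were chosen after their values were seen. Clustering used 20 principal components of 2000 variable genes, 15 neighbors and resolution 0.5. Doublets were not removed. The values of 1 gene of the lists are not reported here. Scrublet marked 1358, 218, 1469 and 1440 kept cells of SAR131675, control diet, LNR and sham, and 2, 0, 2 and 1 members. Simulated sums were drawn with counting error only, without the spread between members. In them the intervals of the diet pair held the true ratio for 96.2% of 7071 genes. All of 199 genes changed by 4-fold passed 2-fold, and 0.175% of the unchanged genes did. This checks the calculation and cannot show that the intervals fit the real members.

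Python 3.11.15, numpy 2.4.6, scipy 1.17.1, pandas 2.3.3, scanpy 1.11.5, anndata 0.12.19, igraph 0.11.9 and matplotlib 3.10.9 were used.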

Additional observations from a re-analysis of the deposited data

Results flagged for a closer look

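Barcodes above the upper limits of 5500 genes or 30000 UMIs were left out of the members and used only as an alternative setting, and some of them met the marker rule. They numbered 93 of 6221 such barcodes in SAR131675, 53 of 4400 in control diet, 11 of 523 in LNR and 10 of 513 in sham.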

How the results depend on the processing

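No paired analysis was possible because each condition had 1 library. Over 10 other settings, the log2 ratio of the share of members ran from −0.24 to 0.17 in the diet pair, with 0 inside each interval, and from 0.18 to 0.87 in the LNR pair, with 0 outside the interval in the 3 settings named above. Counts of genes past 2-fold moved with most settings. In SAR131675 against control diet, the 81 higher and 78 lower genes became 38 and 47 with at least 4 markers, 205 and 44 without upper limits on genes and UMIs, 287 and 276 with at least 20 UMIs, 30 and 38 with at least 100 UMIs, and 162 and 176 with the mean CPM of single members. Leaving out the member with the most UMIs of each gene gave 36 lower genes. In LNR against sham, the 44 higher and 44 lower genes became 83 and 79 without upper limits, 229 and 188 with at least 20 UMIs, 12 and 18 with at least 100 UMIs, and 119 and 104 with the mean CPM. The lower genes became 13 with at least 4 markers and 21 without the top member. Settings added after seeing the data gave 41 higher and 47 lower genes in the diet pair without members over 1% of other cell type markers. Without the clusters led by Prg4 or Sprr1a there were 41 and 21 in the diet pair and 10 and 4 in the LNR pair.

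Some log2 ratios changed sign. In the diet pair, dropping the upper limits turned Fn1 to 1.53, Krt17 to 1.35, Krt5 to 0.14, Krt6a to 1.11, Prg4 to 4.27 and Stmn1 to 0.13. Leaving out members over 1% of other markers turned Hbb-bs to −0.14, Krt24 to 1.20, Prg4 to 0.54 and Sparc to 1.56. Leaving out the clusters turned Calml3 to 0.073, Krt5 to 1.21, Prg4 to 0.79 and Wfdc17 to 1.07. Leaving out the top member turned Hbb-bs to −0.091 and Sparc to 1.85, and at least 4 markers turned Snorc to 0.48. With fewer than 50 UMIs left, leaving out the top member also turned Fn1 to 0.57, Cytl1 to 0.81 and Sprr1a to −0.33. In the LNR pair it turned Mgp to −1.45 and Tpm2 to −0.30, likewise with fewer than 50 UMIs left. In the LNR pair, Krt17 turned to −0.76 without upper limits, and Sparc to 0.92 with at least 4 markers and 0.48 without members over 1% of other markers. The cause was not tested. A gene with fewer than 50 UMIs over the pair under a setting was counted as without a value. This applied to 183 combinations of gene and setting.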
